A study of Mus with 6 samples.

Results

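The heat shock proteins and chaperones examined here were a list of 10 mouse genes chosen by name: Hspa1a, Hspa1b, Hspa5, Hspa8, Hsph1, Hspb1, Hsp90aa1, Hsp90ab1, Dnajb1 and Hspd1. Of these, 8 had a probe set under their symbol, among 19505 genes measured in all, and each of the 8 had a single probe set. Hspa8 and Hsp90ab1, the constitutive cytosolic HSP70 and HSP90, carried no probe set under their symbols in the annotation table and were not analysed here. RNA from brains of the outbred ICR mouse stock was hybridised to 6 Affymetrix whole-transcript arrays, 2 in each of 3 groups. The CK group received ginsenoside Compound K (CK), a metabolite of ginseng saponins, by mouth at 40 mg/kg once daily. From partway through this course it also received SCOP by injection at 2 mg/kg, given after the CK dose. The SCOP group, labelled as the model, received SCOP alone at 2 mg/kg, and the compound is spelled scopoletin hydrobromide in the labels. The Control group received saline. All groups went through behavioural testing before brains were taken, and the methods describe an avoidance task with electric shocks to the feet. The labels call the arrays of a group biological replicates. Whether each array held RNA of a single mouse or of a pool, and the age of the mice, are not given in the sources used here.

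Heat shock proteins are chaperones that bind unfolded or partly folded proteins, prevent them from clumping and help them fold. In the cytosol, J-domain proteins (HSP40) deliver clients to HSP70, nucleotide exchange factors such as HSP110 reset the cycle, HSP90 takes over folding of kinases and steroid receptors, and small heat shock proteins hold unfolded clients. The transcription factor HSF1 raises the inducible members when proteins unfold, while the endoplasmic reticulum (ER) member Hspa5 belongs to the unfolded protein response and Hspd1 serves the mitochondrial matrix. In the brain, neurons, glia and vessels all use this machinery.

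Values are log2 signals as deposited, and a difference of 1 on this scale is a doubling. Changes are the first named group minus the second, with 95% confidence intervals (CI) from a limma fit of all 6 arrays over all 19505 genes, and p-values were adjusted over all of these genes. SCOP replicate 2 stood apart before any gene was considered. Its correlation with the other arrays across genes was 0.965 to 0.969, whereas the other 5 correlated with each other at 0.990 to 0.993. A value is called dim if it lies under the level that 95% of its array's negative control probe sets do not exceed, and this level ranged between 4.98 and 5.55, highest on SCOP replicate 2. The labelled tissue carried its defining markers, since all 15 neuron, 9 astrocyte and 9 oligodendrocyte markers were above the dim level on every array. The same held for only 3 of 9 microglia, 6 of 12 endothelial and mural and 1 of 6 choroid plexus markers. Of these 3 lists, 0, 2 and 2 markers were dim on every array. On SCOP replicate 2 the background probes with at least 16 G or C bases averaged 6.10, against 4.99 to 5.19 elsewhere, and the interquartile range over genes was 3.19, against 3.57 to 3.70. Several marker averages were lower there, though not that of the 9 astrocyte markers at 8.18 (8.17 to 8.31 elsewhere). The lower ones included 8.56 for the 15 neuron markers (9.28 to 9.33 elsewhere), 5.65 for the 12 endothelial and mural markers (6.04 to 6.33), 5.34 for the 6 choroid plexus markers (5.75 to 6.35) and 6.40 for all genes above the dim level on at least 1 array (6.61 to 6.64). The part of these in the chaperone values was not tested, and for the main differences that use this array a value without it is given too. In bulk brain RNA, fewer cells of a type and less RNA per cell cannot be told apart.

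No gene passed an adjusted p under 0.05 in any of the 3 comparisons, and so none of the 8 measured heat shock genes did. The share of all genes called was 0% for CK against SCOP, 0% for SCOP against Control and 0% for CK against Control. At an unadjusted p under 0.05, which does not control false positives, the shares of all genes were 2.57%, 3.31% and 1.44% for the same comparisons. Dnajb1 met the unadjusted level for CK against SCOP and for SCOP against Control, and no other heat shock gene of the set met it in any comparison.

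**Figure D1:**
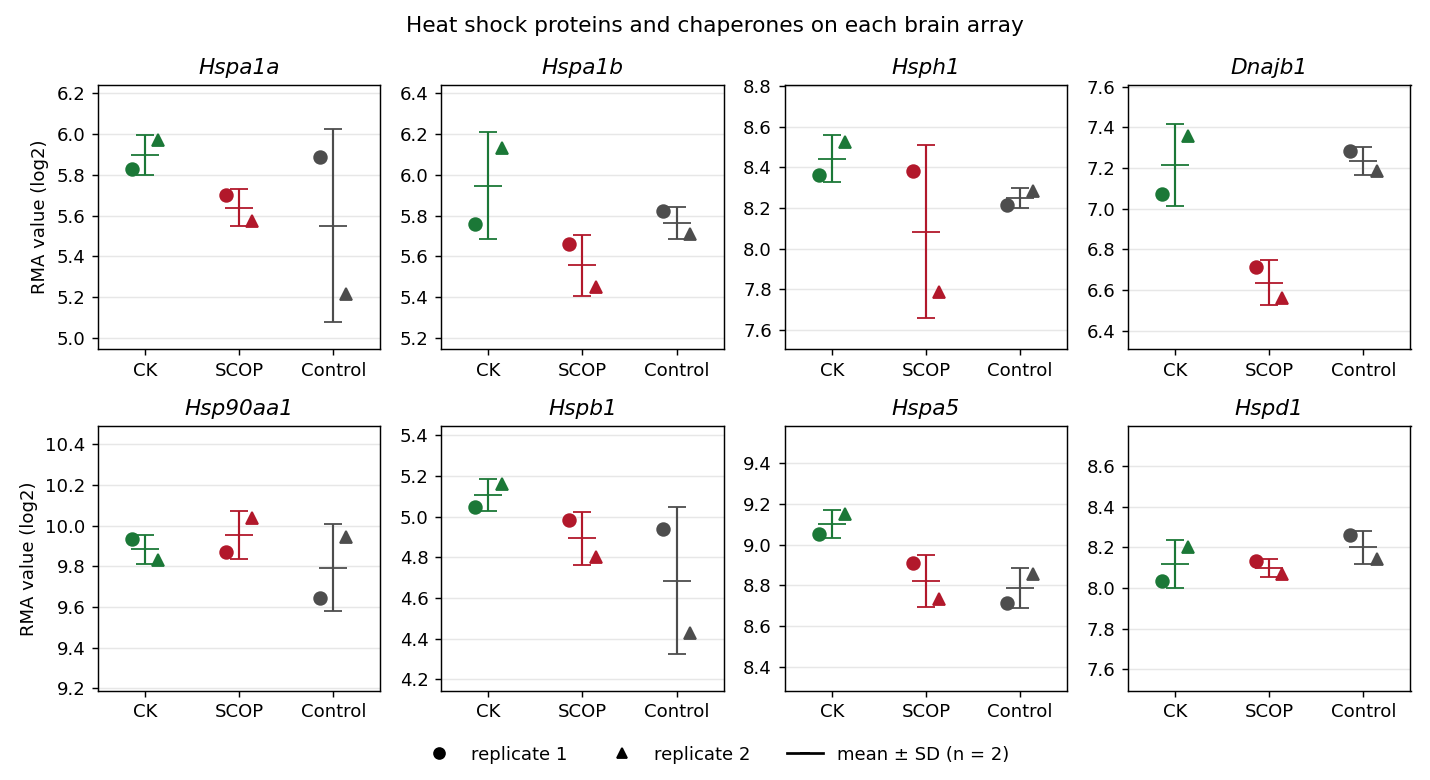
Log2 signal of the 8 measured heat shock genes on each array, in a panel per gene, with CK, SCOP and Control from left to right. Points are the arrays, and bars are the group mean ± SD (n = 2), with the same length of log2 axis in every panel. The Dnajb1 panel has both SCOP arrays below the other 4 arrays, the Hspa5 panel has both CK arrays above the other 4, and Hsp90aa1 and Hspd1 show mixed or nearly level points.

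Dnajb1 encodes the major inducible HSP40, the J-domain partner that brings clients to HSP70 and stimulates its ATPase. It measured 7.07 and 7.36 in the CK group, 6.71 and 6.56 in the SCOP group and 7.28 and 7.19 in the Control group. Both SCOP arrays lay below all CK and Control arrays, and the CK and Control arrays overlapped. The difference of CK from SCOP was 0.58 on the log2 scale (SE 0.21, CI 0.10 to 1.05, limma adjusted p = 0.89), or 1.49-fold (CI 1.08 to 2.07). SCOP differed from Control by -0.60 (SE 0.21, CI -1.07 to -0.13, limma adjusted p = 0.864). Neither value passed after adjustment, and both passed at the unadjusted level. For CK against Control the difference was -0.02 with a CI of -0.50 to 0.45. Without SCOP replicate 2 the differences for Dnajb1 were 0.50 for CK against SCOP and -0.52 for SCOP against Control. Without SCOP replicate 1 they were 0.65 and -0.68. Since both SCOP arrays lay below all others, leaving out either could not turn the direction. Dnajb1 no longer met the unadjusted level for CK against SCOP without CK replicate 2 (0.44), nor for SCOP against Control without Control replicate 1 (-0.55) or Control replicate 2 (-0.65). Under the test named in the study's methods, run on the compared groups alone, Dnajb1 met that level for SCOP against Control and not for CK against SCOP.

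Hspa1a and Hspa1b encode the inducible cytosolic HSP70 proteins, which are nearly identical, so probes of either may read transcripts of the other and their values are not separate evidence. The genes neighbour each other on chromosome 17 in the RefSeq gene order of GRCm38.p6, next to Hspa1l. Hspa1b measured 5.76 and 6.13 in CK, 5.66 and 5.45 in SCOP and 5.82 and 5.71 in Control. Both SCOP arrays were below the other 4, and SCOP replicate 2 was the only array on which Hspa1b was dim. CK exceeded SCOP by 0.39 (SE 0.22, CI -0.11 to 0.89, limma adjusted p = 0.89), and by 0.29 without SCOP replicate 2. SCOP differed from Control by -0.21 (CI -0.71 to 0.29), and by -0.10 without SCOP replicate 2. Both intervals include 0.

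Hspa1a measured 5.83 and 5.97 in CK, 5.70 and 5.57 in SCOP and 5.89 and 5.22 in Control. Its Control arrays held both its lowest and its second highest value, and their gap of 0.67 was the widest between arrays of a group for any of the 8 genes. CK lay above SCOP with no overlap, by 0.26 (CI -0.33 to 0.85), and by 0.20 without SCOP replicate 2. On that array Hspa1a, at 5.57, was close to the dim level of 5.55. The differences were 0.09 for SCOP against Control (CI -0.50 to 0.68) and 0.35 for CK against Control (CI -0.24 to 0.94), each with overlapping arrays. SCOP against Control was 0.15 without SCOP replicate 2. The highest Hspa1a and Hspa1b values were both on CK replicate 2.

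Hsph1 encodes HSP110, the nucleotide exchange factor and disaggregation partner of HSP70. It measured 8.36 and 8.52 in CK, 8.38 and 7.79 in SCOP and 8.22 and 8.29 in Control. SCOP replicate 2 was the single low array, and SCOP replicate 1 lay between the CK values. CK differed from SCOP by 0.36 (SE 0.24, CI -0.20 to 0.92), and by 0.06 without SCOP replicate 2. SCOP differed from Control by -0.17 (CI -0.73 to 0.40), and by 0.13, with the opposite sign, without that array. With SCOP replicate 2 as the lone SCOP array, Hsph1 in CK against SCOP was 0.66 with a limma adjusted p of 0.0491, where 3240 of all genes passed as well, and no other gene of the 8 passed in any fit. The same array had the high background, the narrow range and the lower averages given above, whose part in the Hsph1 value was not tested. CK arrays lay above Control arrays, by 0.19 (CI -0.37 to 0.75).

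**Figure D2:**
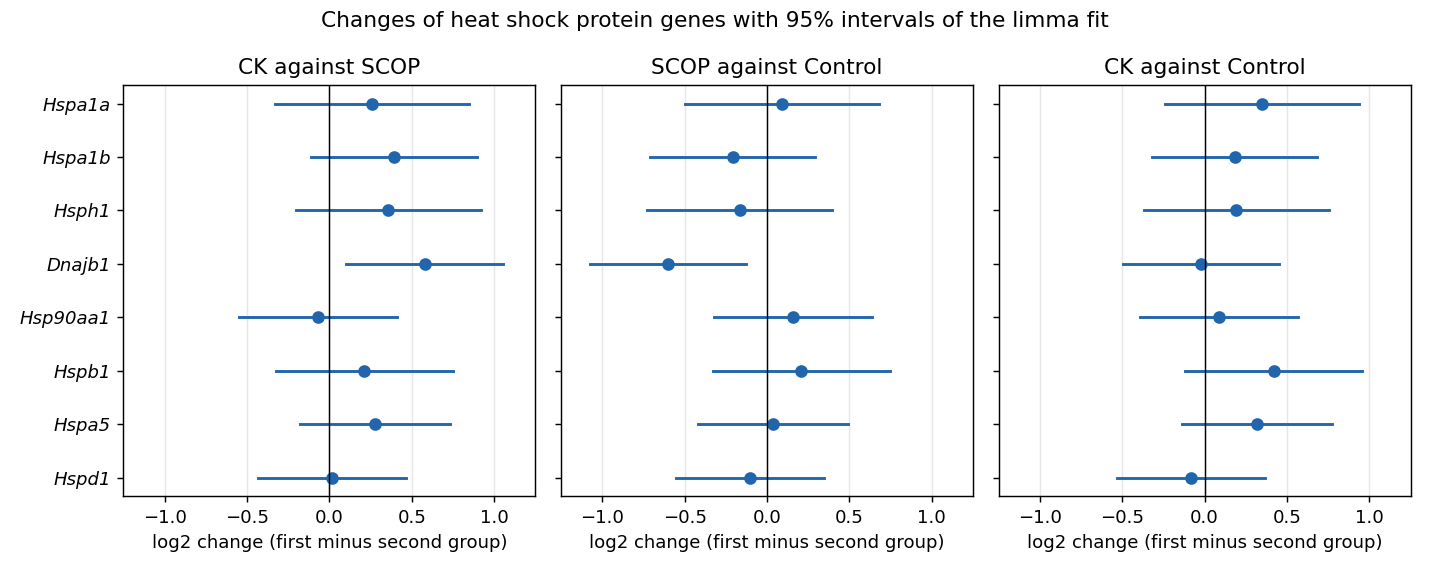
Log2 differences of the 8 heat shock genes for CK against SCOP, SCOP against Control and CK against Control, with points for the estimates and bars for the 95% CI of the limma fit of 6 arrays. The bars leave out 0 only for Dnajb1, at 0.58 for CK against SCOP and -0.60 for SCOP against Control.

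Hsp90aa1 encodes the inducible form of cytosolic HSP90, which completes the folding of kinases and hormone receptors. Its values were 9.93 and 9.83 in CK, 9.87 and 10.04 in SCOP and 9.64 and 9.95 in Control, and the arrays of all 3 groups overlapped. The differences were -0.07 for CK against SCOP (CI -0.55 to 0.41), 0.16 for SCOP against Control (CI -0.32 to 0.64) and 0.09 for CK against Control (CI -0.39 to 0.57). Unlike Hsph1 and Dnajb1, it had its highest value on SCOP replicate 2. Without that array Hsp90aa1 differed by 0.015 for CK against SCOP, with the sign turned, and by 0.07 for SCOP against Control.

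Hspb1 encodes the small heat shock protein HSP27 (HSP25 in the mouse), an ATP-independent holdase. It measured 5.05 and 5.16 in CK, 4.99 and 4.80 in SCOP and 4.94 and 4.43 in Control. CK replicate 2 was the only array on which it was above the dim level. Both CK values were the highest of the 6, but since CK replicate 1 and all SCOP and Control arrays were dim, no fold is given (measured means 5.10 in CK, 4.89 in SCOP and 4.68 in Control).

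Hspa5 encodes BiP, the HSP70 of the ER lumen, which also holds the stress sensors of the unfolded protein response inactive until unfolded proteins occupy it. It measured 9.05 and 9.15 in CK, 8.91 and 8.73 in SCOP and 8.71 and 8.85 in Control. Both CK arrays were above the other 4, while SCOP and Control overlapped. The mean was 9.10 ± 0.07 in CK, 8.82 ± 0.13 in SCOP and 8.78 ± 0.10 in Control (SD, n = 2 each). CK exceeded SCOP by 0.28 (SE 0.20, CI -0.18 to 0.74) and Control by 0.32 (SE 0.20, CI -0.14 to 0.77). Neither interval excludes 0. The first difference was 0.19 without SCOP replicate 2, and the difference from Control does not use a SCOP array. SCOP against Control was 0.04 (CI -0.42 to 0.49).

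Hspd1 encodes HSP60, the chaperonin of the mitochondrial matrix. It measured 8.03 and 8.20 in CK, 8.13 and 8.07 in SCOP and 8.26 and 8.14 in Control. This gene had the smallest span over the 6 arrays of the set, 0.23. Its difference was 0.02 for CK against SCOP (CI -0.43 to 0.47), -0.10 for SCOP against Control (CI -0.55 to 0.35) and -0.08 for CK against Control (CI -0.53 to 0.37). With 2 arrays a group, changes within these limits are not excluded. Hspe1, the HSP10 partner of Hspd1, differed by -0.25, 0.04 and -0.21 for the same comparisons, and Hspa9, the mitochondrial HSP70, by 0.23, -0.08 and 0.15, each with overlapping CK and SCOP arrays. Without SCOP replicate 2, Hspe1 turned sign to 0.15 for CK against SCOP and -0.36 for SCOP against Control, and Hspa9 was 0.06 and, with the sign turned, 0.09.

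**Figure D3:**
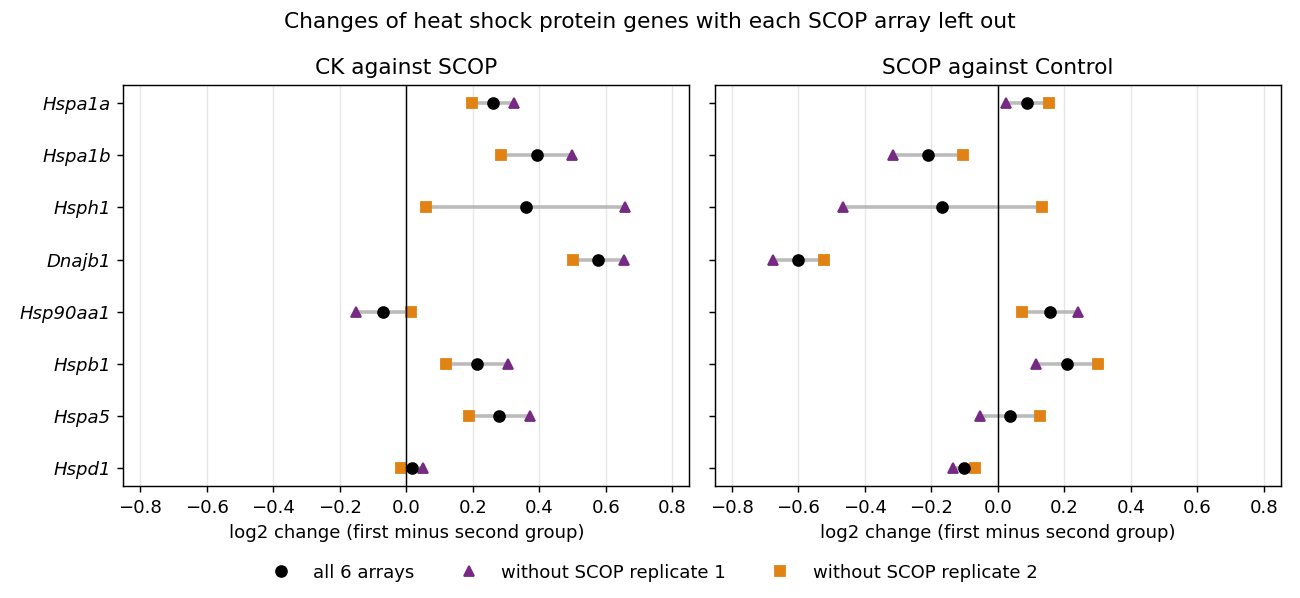
Log2 differences of the 8 heat shock genes for CK against SCOP and SCOP against Control with all arrays, without SCOP replicate 1 and without SCOP replicate 2. Dnajb1 stays between 0.50 and 0.65 for CK against SCOP, while Hsph1 moves between 0.06 and 0.66.

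Of the 8 heat shock genes, 7 had a higher mean in CK than in SCOP, Hsp90aa1 being the exception. So did 10216 of all 19505 genes, and 6464 of the 10039 genes above the dim level on at least 1 array. Without SCOP replicate 2, 7 of the 8 were again higher, with Hsp90aa1 at 0.015 and Hspd1, then the exception, at -0.015. The wider counts were then 9914 of 19505 and 4842 of 10039. The CK and SCOP arrays did not overlap for 5 of the 8 genes, Hspa1a, Hspa1b, Hspa5, Hspb1 and Dnajb1, all with CK higher, and 0 of 8 with CK lower. Hspb1 was near background, and so were Hspa1a and Hspa1b on SCOP replicate 2. Over all genes 15.5% had CK arrays wholly above and 14.3% wholly below SCOP arrays. Over the genes above the dim level on at least 1 array, these shares were 18.9% and 9.92%. The median difference over the 8 genes was 0.27, against 0.02 over all genes and 0.10 over the 10039 genes that were above the dim level on at least 1 array. Without SCOP replicate 2 the medians were 0.15 for the 8 genes and 0.0047 over all genes. Taking Hspa1b alone for the inducible HSP70 pair left 4 of 7 genes without overlap, all with CK higher.

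For SCOP against Control, 0 of 8 genes had SCOP wholly above, where 15% of all genes did, and 3 of 8, Hspa1b, Dnajb1 and Hspd1, had SCOP wholly below, where 13.3% of all genes did. Over the 10039 genes above the dim level on at least 1 array, 9.36% had SCOP wholly above and 17.0% wholly below. The median difference was -0.03 for the 8 genes, with 4 above 0 and 4 below, against -0.10 over those 10039 genes. Of those 10039, 3691 were above 0 and 6348 below. Without SCOP replicate 2 the medians were 0.10 for the 8 genes and 0.0089 over those 10039.

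For CK against Control, 3 of 8 genes had CK wholly above, Hspa5, Hsph1 and Hspb1, and 0 of 8 had CK wholly below, where 18.4% and 15.7% of all genes did. Over the 10039 genes above the dim level on at least 1 array, these shares were 17.3% and 18.0%. The median difference was 0.19, against 0.01 over all genes and 0.0031 over those 10039. Of the 8, Hspa5 and Hspb1 had both CK arrays above all SCOP and Control arrays, a pattern held by 5.89% of all genes and 6.51% of those 10039. Hspa1b and Dnajb1 had both SCOP arrays below all others, a pattern held by 6.14% of all genes and 8.2% of those 10039. CK replicate 2 was the highest array for 6 of the 8 genes, the exceptions being Hsp90aa1 and Hspd1. The share of all genes that were highest on this array was not counted, so this is not a trait of the set.

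The shares of all genes given beside the lists below include genes dim on every array. For genes above the dim level on at least 1 array, the shares and medians given above apply. For CK against SCOP, the 15 neuron, 9 astrocyte and 9 oligodendrocyte markers had 7, 3 and 2 genes wholly above and 0 wholly below. Their medians were 0.37, 0.19 and 0.22, and without SCOP replicate 2 they were 0.05, 0.14 and 0.10. The 9 microglia, 12 endothelial and mural and 6 choroid plexus markers had 3, 1 and 1 wholly above and 2, 2 and 0 wholly below. The wider HSP70 and HSP110 family, 10 other genes, had CK wholly above SCOP for 4 genes and wholly below for 1 (15.5% and 14.3% of all genes), with a median difference of 0.19 (0.09 without SCOP replicate 2). Hspa2, the HSP70 known for its role in male germ cells, measured 6.49 and 6.55 in CK, 6.44 and 5.13 in SCOP and 6.63 and 6.58 in Control. Its low value was on SCOP replicate 2 alone, and the CK against SCOP difference of 0.74 was 0.08 without that array. Hyou1, an ER-resident HSP110 relative, differed by 0.46 (0.15 without SCOP replicate 2), and Hspa12a, a distant HSP70 relative, by 0.34 (0.17). In the HSP90 family, Hsp90b1 (GRP94 of the ER) differed by 0.03 and Trap1 (mitochondrial HSP90) by 0.08 for CK against SCOP, and by 0.25 and 0.19 without SCOP replicate 2.

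The J-domain proteins other than Dnajb1 had no gene past the adjusted threshold. Of 20 measured genes out of 23 listed, 10 had CK wholly above SCOP and 0 wholly below (15.5% and 14.3% of all genes), with a median difference of 0.15 (0.07 without SCOP replicate 2). For SCOP against Control, 5 of 20 had SCOP wholly below and 0 wholly above (13.3% and 15% of all genes), with a median of -0.17 (-0.04 without SCOP replicate 2). For CK against Control, 2 of 20 had CK wholly above and 6 wholly below (18.4% and 15.7% of all genes), with a median of -0.0051. Dnaja3, the mitochondrial J-domain protein, measured 6.45 and 6.43 in CK, 6.20 and 5.88 in SCOP and 6.75 and 6.59 in Control. Both SCOP arrays were the lowest, with a difference from Control of -0.63 (limma adjusted p = 0.864), and of -0.47 without SCOP replicate 2. Dnajb11, the J-domain partner of BiP in the ER, measured 5.57 and 5.62 in CK, 5.20 and 5.23 in SCOP and 5.51 and 5.38 in Control. The 3 groups were fully separated, with CK highest and SCOP lowest, and the value on SCOP replicate 2 was dim. Its difference for CK against SCOP was 0.38 with SCOP replicate 2 and 0.39 without it. Dnajb14, a membrane-bound ER J-domain protein, differed by -0.39 for SCOP against Control (-0.31 without SCOP replicate 2) and by -0.19 for CK against Control. Dnaja1 was not analysed here.

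The co-chaperones of HSP70 and HSP90 (26 of 28 measured) had 10 genes with CK wholly above SCOP and 3 wholly below (15.5% and 14.3% of all genes), with a median of 0.15 (0.05 without SCOP replicate 2). For CK against Control the counts were 5 and 1 (18.4% and 15.7% of all genes) and the median 0.02. Fkbp5, the FK506-binding co-chaperone of HSP90 that is a known target of the glucocorticoid receptor, measured 7.08 and 7.58 in CK, 6.75 and 7.02 in SCOP and 6.68 and 7.05 in Control. Both CK arrays exceeded the other 4, though CK replicate 1 at 7.08 was close to Control replicate 2 at 7.05. The CK arrays were 0.50 apart. The CK mean was higher by 0.45 than that of SCOP (CI -0.13 to 1.04) and by 0.47 than that of Control (CI -0.12 to 1.05). CK and SCOP differed by 0.59 without SCOP replicate 2. Bag3, the HSP70 co-chaperone of selective autophagy, differed by 0.17 for CK against SCOP (0.20 without SCOP replicate 2) and 0.22 for CK against Control. Sil1, an exchange factor for BiP, differed by -0.28 for CK against SCOP (-0.24 without SCOP replicate 2), with overlapping arrays, and was dim on Control replicate 2. Hspbap1 was dim on every array.

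Among 22 measured HSF1 target genes outside the set, of 25 listed, 11 had CK wholly above SCOP and 1 wholly below (15.5% and 14.3% of all genes), with a median of 0.17 (0.13 without SCOP replicate 2). Against Control, CK was wholly above for 8 and wholly below for 3 (18.4% and 15.7% of all genes). For 8 of the 22 (36.4%) both CK arrays exceeded all SCOP and Control arrays, and none of the 22 passed the test. This pattern was held by 5.89% of all genes and 6.51% of genes not dim on every array. These 8, named after their values were seen, were Hspa4l, Hspb8, Bag3, Ahsa1, Ahsa2, Hsf2, Cct5 and Serpinh1, of which Hspb8 and Serpinh1 were dim on every array. All of the 8 but Serpinh1 also stand in another list used here, so this count is not separate evidence from those lists. Ahsa1, the activator of the HSP90 ATPase, measured 7.86 and 7.83 in CK, 7.57 and 7.44 in SCOP and 7.64 and 7.68 in Control. Its groups were separated, with differences of 0.34 for CK against SCOP (0.28 without SCOP replicate 2) and 0.19 for CK against Control. Hsf2, a heat shock factor, differed by 0.28 and 0.20 for these comparisons, and Hsbp1, an inhibitor of HSF1, by -0.02 and -0.21, with 0.14 for Hsf2 and -0.06 for Hsbp1 in CK against SCOP without SCOP replicate 2. Hsf1 itself was not analysed here, and Hsf5 was dim on every array.

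The ER chaperones and unfolded protein response genes (24 of 26 measured) serve the compartment of Hspa5 or its stress response, and some of them stand in other lists too. CK lay wholly above SCOP for 12 and wholly below for 2 (15.5% and 14.3% of all genes), with a median of 0.26 (0.17 without SCOP replicate 2). CK lay wholly above Control for 9 and wholly below for 2 (18.4% and 15.7% of all genes), with a median of 0.15, a comparison without SCOP arrays. For SCOP against Control, SCOP lay wholly above for 1 and wholly below for 6 (15% and 13.3% of all genes), with a median of -0.13 (-0.07 without SCOP replicate 2). At the unadjusted level 2 of the 24 were higher in CK than in SCOP, Edem1 and Sel1l, and 0 passed after adjustment. At that level 223 of all 19505 genes were higher, and 108 of the 10039 above the dim level on at least 1 array. Sel1l, the adaptor of the ER-associated degradation ligase, measured 7.47 and 7.09 in CK, 6.99 and 6.26 in SCOP and 7.15 and 7.02 in Control. Its difference for CK against SCOP was 0.66 (CI 0.01 to 1.30), and 0.29 without SCOP replicate 2. Edem1, a lectin that hands misfolded glycoproteins to degradation, was dim on all SCOP and Control arrays, and no fold can be given against SCOP (measured means 5.19 in CK and 4.26 in SCOP). Its SCOP values were 4.87 on replicate 1 and 3.64 on replicate 2, and the measured difference of 0.93 was 0.32 without SCOP replicate 2. Calr, the calcium-binding lectin chaperone of the ER, measured 9.88 and 9.95 in CK, 9.76 and 8.97 in SCOP and 9.85 and 9.95 in Control. The single low Calr value was on SCOP replicate 2, and the difference of 0.55 was 0.15 without it.

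**Figure D4:**
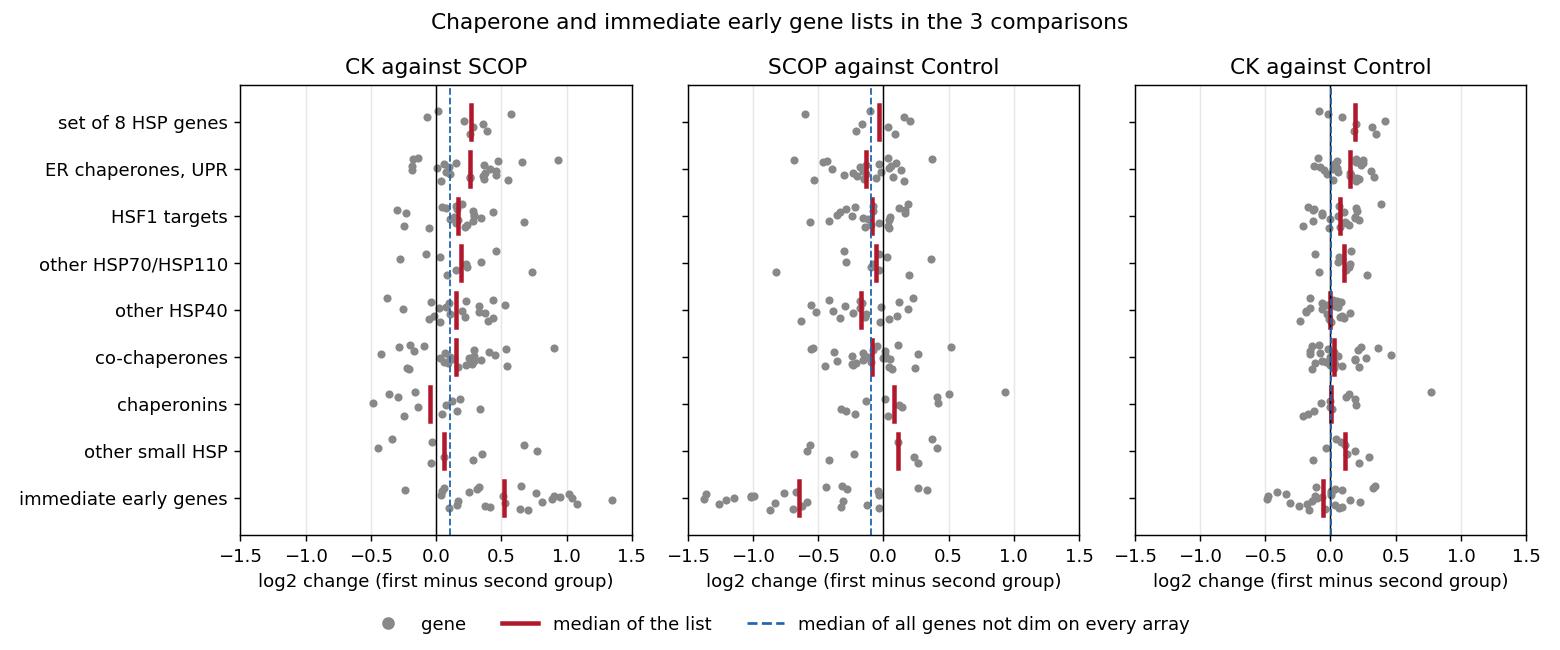
Log2 differences of each gene for the set of 8 heat shock genes and for the other lists of chaperone biology and immediate early genes, in a panel per comparison. Points are genes, including dim ones, red marks are list medians, and the blue dashed line is the median of the genes above the dim level on at least 1 array. In the first and second panels the immediate early genes lie furthest from the line, at a median of 0.52 for CK against SCOP and -0.64 for SCOP against Control (0.30 and -0.36 without SCOP replicate 2).

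Chaperonins fold actin, tubulin and matrix proteins inside a closed ring. Of 12 measured chaperonin genes out of 13 listed, 2 had CK wholly above SCOP and 3 wholly below (15.5% and 14.3% of all genes), with a median of -0.05 that turned to 0.06 without SCOP replicate 2, and Bbs10, Bbs12 and Cct6b, which the naming rule picks from this list, were dim on every array. Of 9 other small heat shock proteins, 7 were dim on every array, Hspb7 and Hspb8 among them. Cryab, the abundant alpha B-crystallin of glia, measured 8.58 and 8.80 in CK, 8.61 and 8.20 in SCOP and 8.86 and 8.78 in Control. Both SCOP arrays were below both Control arrays, by -0.41 (CI -0.93 to 0.10), and by -0.21 without SCOP replicate 2.

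The immediate early genes, which neurons and other cells switch on within minutes of stimulation, were set beside the chaperones because the mice had been through behavioural testing. For 14 of 26 (53.8%) both SCOP arrays lay below all other arrays, where 6.14% of all genes and 8.2% of genes not dim on every array did, the pattern also held by Dnajb1 and Hspa1b. The list's median was 0.52 for CK against SCOP and -0.64 for SCOP against Control, and 0.30 and -0.36 without SCOP replicate 2. Egr2, an early response transcription factor, measured 6.50 and 6.23 in CK, 5.81 and 5.87 in SCOP and 6.69 and 6.65 in Control. The 3 groups were separated, with differences of 0.53 for CK against SCOP and -0.83 for SCOP against Control, and of 0.55 and -0.86 without SCOP replicate 2. Arc, a synaptic early gene, differed by 1.35 and -1.20, and by 0.89 and -0.74 without that array. Fos was dim on both SCOP arrays, so its folds are given as bounds, with dim arrays set at the dim level. These bounds describe the measured values and leave out sampling error. CK was at least 1.40-fold above SCOP (measured means 5.77 and 5.06, limma adjusted p = 0.89). SCOP was at least 1.57-fold below Control (5.06 and 5.93, limma adjusted p = 0.864). The limma CIs of the measured folds, 1.195 to 2.215 and 1.339 to 2.481, reach below these bounds. None of the 26 passed after adjustment, and the part of behavioural testing in the chaperone values was not tested.

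The genes most like the HSP70 genes and their co-chaperones in pattern were sought with the mean centred value of Hspa1a, Hspa1b, Hsph1 and Dnajb1. Hsp90aa1, whose CK against SCOP difference was -0.07, is not in this mean, and the HSP70 pair enters it as separate genes. This profile was 0.07 and 0.31 on the CK arrays, -0.07 and -0.34 on the SCOP arrays and 0.12 and -0.09 on the Control arrays. Among 5685 genes outside the chaperone lists with a standard deviation of at least 0.2, the 8 highest Pearson correlations over the 6 arrays were those of Mtx1, Fbxo6, Odf3b, Fign, Pitpnm3, Slc5a7, Axin1 and Psme2b, at 0.971 to 0.987. Without SCOP replicate 2 they were 0.935 to 0.976 over 5 arrays. These were picked as the highest of many genes on few arrays that share background and labelling, and they are a description only.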

How the data were processed

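Brain RNA of 6 mouse samples, 2 each from the CK, SCOP and Control groups as labelled, was measured on Affymetrix whole-transcript arrays. The authors deposited a log2 value for each probe set. The submitters' processing notes name RMA, which corrects background and normalizes between arrays, so differences in total RNA cannot be read. Neither the RMA version nor a genome build is given in the sources used here. In all, the table held 29129 probe sets, 22206 for transcripts and 5222 negative controls. A single symbol was given for 19572 and none for 2634, and all 19572 matched mouse RefSeq (GRCm38.p6) by Entrez identifier. For the 55 genes with more than 1 probe set, the brightest was kept, leaving 19505 genes, of which 9466 (48.5%) were dim on every array. No filter was applied, and 0 sample columns were left out.

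A single limma model (version 3.58.1, R 4.3.3) took in all 6 arrays (lmFit, eBayes, 3 residual and 5.08 prior degrees of freedom), with Benjamini-Hochberg adjustment over all genes. The code was tested on simulated data. For 2 against 2 arrays the smallest two-sided exact permutation p is 0.333, so none is given. P-values set each difference against the spread between arrays of a group, pooled over the groups and moderated over all genes. Whether that spread is one between single mice is not known, since pooling is not stated. The number of arrays, and signal over background, limit the precision.

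The members and gene lists were chosen with earlier results of these data known. Named genes are all members, up to 3 genes of each other list with the smallest unadjusted p in any comparison, a few chosen partners (Hspe1, Hspa9, Hsp90b1, Cryab, Bag3, with Dnaja1 and Hsf1 not analysed here), and 8 genes most alike in pattern. Hspa4l, Ahsa1, Ahsa2 and Cct5 fall outside this rule and were chosen after their values were seen. Alternatives were quantile normalization, centred medians, genes above the median level only, a mean over a gene's probe sets, the trend and robust options of eBayes, the replicate number as a block, a fit of the compared groups alone, single arrays left out, other thresholds and the t-test named in the study's methods.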

Additional observations from a re-analysis of the deposited data

How the results depend on the processing

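Of 360 values of the 24 differences of the heat shock genes under alternatives, 343 kept their direction and side of the threshold, 16 changed sign and 1 passed the threshold. Many of these values could not change sign. The eBayes options, the block, the compared groups alone, the t-test and the mean of probe sets left each difference as it was. The same holds for genes above the median level only, and for leaving out an array of the group not compared. Of the 24 differences, 11 changed sign under at least 1 alternative. No gene passed after adjustment under any alternative that kept all 6 arrays, nor at an adjusted p under 0.1 in place of 0.05. Leaving out a single array gave 0 to 3240 genes for CK against SCOP and 0 to 3137 for SCOP against Control, the upper counts without SCOP replicate 1, where SCOP replicate 2 stands for its group alone and its spread is taken from the other arrays. Of the 8 genes, 0 to 1 passed for CK against SCOP. At an unadjusted p under 0.05 the counts were 502, 646 and 280 genes for CK against SCOP, SCOP against Control and CK against Control, with 1, 1 and 0 of the 8. With the replicate number as a replicate block, 0 genes passed. Deviations of same-numbered arrays correlated at -0.03 to 0.02. With 2 arrays a group this cannot decide whether same-numbered arrays shared a batch, and the labels name none. The methods' test gave 584, 552 and 975 genes unadjusted and 0 after adjustment.

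Changes of sign were among small differences. For CK against SCOP, Hspd1 was -0.066 after quantile normalization and -0.026 with centred medians. Leaving out single arrays gave -0.066 to 0.10 for Hspd1 and -0.15 to 0.015 for Hsp90aa1. For SCOP against Control, Hspd1 was 0.013 after quantile normalization, and leaving out single arrays gave -0.25 to 0.42 for Hspa1a, -0.055 to 0.13 for Hspa5, -0.47 to 0.13 for Hsph1 and -0.048 to 0.46 for Hspb1. For CK against Control it gave -0.0039 to 0.37 for Hspa1b, -0.063 to 0.24 for Hsp90aa1, -0.16 to 0.12 for Dnajb1 and -0.17 to 0.00029 for Hspd1. The cause was not tested.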
